A study of Mus musculus with 6 samples.

Results

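The 39 genes of sphingolipid synthesis and breakdown were read in RNA from mouse BM cells given the Plek2 inhibitor NUP-17d or its vehicle. They were picked by name for their place in the pathway, with earlier results of these data known, and are 39 of 17060 genes listed in at least 1 culture. Lineage-negative cells, the BM fraction left after removal of cells with mature blood lineage markers, came from WT mice and were grown in EPO medium, which drives them toward erythroblasts. For 48 hours they received DMSO (3 cultures) or NUP-17d (3 cultures), the latter at 10 μM as the legend to the study's gene set analysis states. The WT genotype, cell fraction and medium were common to both groups, and the compound is the only difference stated. Whether the groups shared animals or a culture day is not given. The sources used here give neither the age of the mice nor whether cultures of a group came from separate animals, so p-values measure only the spread between these cultures, which may be technical.

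Sphingolipids are membrane lipids built on a sphingoid base. Serine palmitoyltransferase joins serine and palmitoyl-CoA in the endoplasmic reticulum, the product is acylated and desaturated to ceramide, and ceramide becomes sphingomyelin, glucosylceramide and the gangliosides, or ceramide phosphate. In the lysosome, hydrolases and their activator proteins take these lipids apart again, and the sphingosine released can be phosphorylated to sphingosine phosphate, a signaling lipid that red cells store and release.

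Depth was nearly the same in all cultures. Expected counts, the authors' estimates of reads per gene, summed to between 20278433 and 20419018 in DMSO cultures and to between 20076409 and 20170197 in NUP-17d cultures. Hemoglobin genes took 18.3% to 20.3% of these counts with DMSO and 11.8% to 13.1% with NUP-17d. Levels are therefore given as CPM, counts relative to the library total after TMM scaling, which sets libraries so that most genes show little difference. All 11 erythroid markers examined were measured in every culture, and so was the neutrophil precursor gene Mpo, at 1721 to 1779 CPM in DMSO cultures. The cultures were thus a mixture of cell types, whereas the labels name erythroblasts as the source. In such bulk samples, fewer cells of a type and less RNA per cell cannot be told apart. Plek2 itself, whose protein is the compound's target, was lower with NUP-17d at -0.40 on the log2 scale (edgeR adjusted p = 1.78e-07), with 50.9 to 55.9 CPM in DMSO cultures and 38.5 to 41.2 CPM in NUP-17d cultures.

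To ask where along the pathway transcripts moved, each member was compared between NUP-17d and DMSO cultures. The clearest changes were a fall in St3gal5, the sialyltransferase that makes the ganglioside GM3, a fall in Ormdl3 and Sgms1 of the ceramide and sphingomyelin arm, and a rise in the lysosomal breakdown genes led by Psap, the precursor of the saposins. All 39 members had a row in each culture's table, with counts from 24.66 to 92380, and all 39 passed the filter on low counts. In edgeR's quasi-likelihood test, with p adjusted over 12306 genes by the Benjamini-Hochberg method, 19 of the 39 differed (48.7%), against 35.3% of all genes tested. Of these, 15 were higher (38.5% of members, against 16.4% of all genes) and 4 were lower (10.3%, against 18.9%). The median log2 fold change of the members was 0.10, and that of all genes tested was 0.014. Changes were small: 18 of the 19 lay under 0.5 on the log2 scale in size. For 20 members the 3 NUP-17d values lay wholly above (15) or wholly below (5) the 3 DMSO values. Among all genes tested 46.0% were likewise without overlap, 22.8% with higher and 23.2% with lower values.

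The count of members in each direction rests on the scaling. Scaled by library totals alone, 33 members were higher and 2 lower, when 68.7% of all genes tested were higher and 5.34% lower. The median of all genes tested moved from 0.014 to 0.28 on the log2 scale. The members' median moved with it, to 0.36, and its distance from the median of all genes was 0.081 under both scalings.

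**Figure D1:**
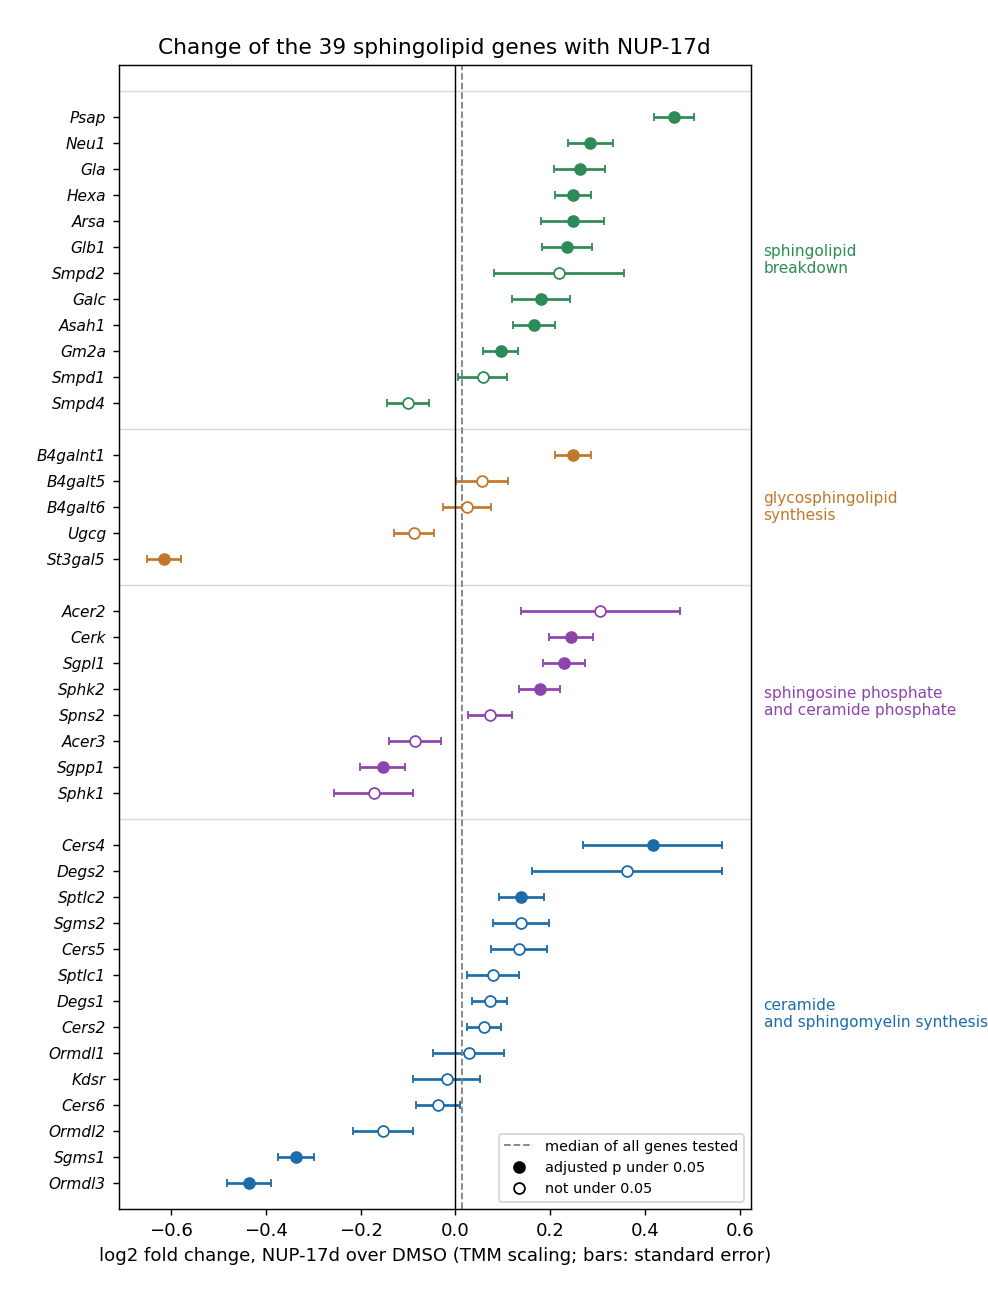
Log2 fold change of each of the 39 genes (points, with standard error), NUP-17d over DMSO with TMM scaling, 3 cultures a group; filled points passed an adjusted p of 0.05, colors mark the 4 role groups, and the dashed line is the median of all genes tested (0.014). St3gal5 lies farthest to the left (-0.61) and Psap farthest to the right (0.46), and all 9 filled points of the breakdown group lie to the right of 0; Sgpp1, filled and left of 0 here, turns to 0.11 when scaled by library totals alone.

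Among genes that make ceramide and sphingomyelin, the clearest changes were the falls of Ormdl3 and Sgms1. Of 14, 2 rose (Sptlc2, Cers4), 2 fell (Ormdl3, Sgms1) and 10 did not pass the test, so that 28.6% were called against 35.3% of all genes tested, and the median log2 fold change was 0.066. Summed over the 14 genes, the level was 623 ± 7.83 CPM with DMSO (SD, n = 3) and 607 ± 6.73 CPM with NUP-17d, without overlap between cultures with a ratio of 0.975 that turned to 1.17 when scaled by library totals alone. Of the 14 genes, 9 had a positive log2 fold change.

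Ormdl3 (Entrez 66612) encodes an endoplasmic reticulum protein that restrains serine palmitoyltransferase. It stood at 51.2, 51.5 and 50.6 CPM in DMSO cultures 1 to 3 and at 38.7, 35.9 and 38.7 CPM in NUP-17d cultures 1 to 3. The 2 groups were far apart relative to their spread, with means of 51.1 ± 0.461 and 37.8 ± 1.61 CPM. The log2 fold change was -0.44 (SE 0.046, adjusted p = 1.99e-08) and kept its direction at -0.17 when scaled by library totals alone. Its relatives were not called: Ormdl1 was at 0.03 (adjusted p = 0.804) and Ormdl2 at -0.15 (adjusted p = 0.0599) on the log2 scale. Per length, the ratio of the FPKM of Ormdl3 to the summed FPKM of Ormdl1 and Ormdl2, which needs no scaling between cultures, was 1.05 ± 0.0725 with DMSO and 0.826 ± 0.0819 with NUP-17d.

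Serine palmitoyltransferase itself, the enzyme that Ormdl proteins hold back, consists of the subunits Sptlc1 and Sptlc2. Sptlc2 (Entrez 20773) was at 54.7, 48.8 and 51.9 CPM with DMSO and at 56.9, 59.6 and 54.4 CPM with NUP-17d. The lowest NUP-17d culture lay just below the highest DMSO culture, and the log2 fold change of 0.14 passed the test narrowly (SE 0.0477, adjusted p = 0.0244), a call lost in DESeq2 and without DMSO culture 2, DMSO culture 3 or NUP-17d culture 2. Sptlc1 was at 0.08 (adjusted p = 0.283). Per length, the summed FPKM of the 3 Ormdl transcripts divided by that of both subunits went from 2.72, 2.78 and 2.79 in DMSO cultures to 2.08, 2.20 and 2.19 in NUP-17d cultures, again without overlap. This ratio and the others were formed from FPKM, not CPM, after the values were seen, and carry no test.

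Sgms1 (Entrez 208449), the Golgi sphingomyelin synthase, was at 112, 106 and 106 CPM with DMSO and at 85.9, 85.0 and 85.8 CPM with NUP-17d. All 3 NUP-17d cultures were nearly alike and lay well under the DMSO cultures. The fall by 0.34 on the log2 scale (SE 0.0379, adjusted p = 6.14e-08) was no longer called when libraries were scaled by totals alone, at -0.07. Sgms2, the plasma membrane enzyme of the same reaction, was less abundant and lay on the other side of 0, at 0.14 (adjusted p = 0.0694). The FPKM ratio of Sgms1 to Smpd1, the acid sphingomyelinase that breaks sphingomyelin down in lysosomes, was 2.63 ± 0.0477 with DMSO and 1.99 ± 0.0613 with NUP-17d.

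Among the ceramide synthases, each of which prefers fatty acids of certain lengths, Cers2 was the most abundant and did not pass the test at 0.06 (adjusted p = 0.208). Cers4 (Entrez 67260), the scarcest of the 4, was at 3.92, 3.005 and 3.71 CPM with DMSO and at 4.16, 5.11 and 4.90 CPM with NUP-17d. It rose by 0.42 on the log2 scale (SE 0.146, adjusted p = 0.0275), a call that DESeq2 did not make and that was lost without DMSO culture 2, NUP-17d culture 2 or NUP-17d culture 3. Cers5 was at 0.13 (adjusted p = 0.0806) and Cers6 at -0.04 (adjusted p = 0.577). Kdsr, the reductase between serine palmitoyltransferase and the synthases, was at -0.02 (adjusted p = 0.863). The desaturases that complete ceramide were at 0.07 for Degs1 (adjusted p = 0.132) and 0.36 for the scarce Degs2 (adjusted p = 0.169).

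Genes that handle sphingosine phosphate and ceramide phosphate numbered 8, of which 3 rose (Cerk, Sgpl1, Sphk2), 1 fell (Sgpp1) and 4 did not pass the test. The shares were 37.5% higher and 12.5% lower, against 16.4% and 18.9% of all genes tested. Their median log2 fold change was 0.13, and their summed level went from 361 ± 9.38 to 389 ± 4.96 CPM (SD, n = 3), a ratio of 1.08 (1.29 when scaled by library totals alone).

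Cerk (Entrez 223753), the kinase that makes ceramide phosphate, was at 62.4, 70.5 and 65.9 CPM with DMSO and at 76.9, 82.6 and 75.9 CPM with NUP-17d. Every NUP-17d culture was above every DMSO culture. The log2 fold change was 0.24 (SE 0.046, adjusted p = 0.000134).

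Sgpl1 (Entrez 20397), the lyase that cleaves sphingosine phosphate irreversibly and so ends the pathway, was at 80.9, 90.0 and 88.3 CPM with DMSO and at 99.7, 107 and 96.9 CPM with NUP-17d, a rise of 0.23 on the log2 scale (SE 0.0448, adjusted p = 0.0002). Of the kinases that form its substrate, only Sphk2 passed the test. Sphk2 (Entrez 56632) was at 53.5, 51.6 and 54.0 CPM with DMSO and at 57.7, 61.4 and 60.8 CPM with NUP-17d. The rise was 0.18 (SE 0.043, adjusted p = 0.00184). Sphk1 was scarcer and stood at -0.17 (adjusted p = 0.112), which turned to 0.095 when scaled by library totals alone. The FPKM ratio of Sphk2 to Sphk1 was 1.88 ± 0.278 with DMSO and 2.37 ± 0.190 with NUP-17d, with overlapping cultures. The ratio of the summed FPKM of the kinases to the FPKM of the lyase went from 1.08 ± 0.0843 to 0.962 ± 0.0444.

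Sgpp1 (Entrez 81535), a phosphatase that returns sphingosine phosphate to sphingosine, was at 57.9, 60.6 and 61.9 CPM with DMSO and at 57.7, 51.2 and 53.4 CPM with NUP-17d. NUP-17d culture 1 almost reached the lowest DMSO culture. The log2 fold change was -0.15 (SE 0.0467, adjusted p = 0.0116) but turned to 0.11 when scaled by library totals alone, so its direction depends on the scaling, and the call was lost without DMSO culture 3 or NUP-17d culture 2.

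The exporter Spns2 was at 0.07 (adjusted p = 0.242). The ceramidases Acer2 and Acer3, which free sphingosine outside the lysosome, were at 0.31 (adjusted p = 0.163) and -0.09 (adjusted p = 0.239). Mfsd2b, the exporter of sphingosine phosphate in erythroid cells and platelets, is not among the 39. It was at 243, 230 and 236 CPM with DMSO and at 226, 227 and 237 CPM with NUP-17d, overlapping values with a log2 fold change of -0.04 (adjusted p = 0.435) that turned to 0.23 when scaled by library totals alone.

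With TMM scaling, glycosphingolipid synthesis held the largest change of the 39 genes, that of St3gal5. Scaled by library totals alone, St3gal5 (-0.35 on the log2 scale) changed less in size than the members' median (0.36), and Psap (0.73) and Cers4 (0.68) changed most. Of the 5 genes of glycosphingolipid synthesis, St3gal5 fell, B4galnt1 rose, and Ugcg, B4galt5 and B4galt6 did not pass the test (20% higher and 20% lower, against 16.4% and 18.9% of all genes tested). The summed level went from 985 ± 23.5 to 752 ± 14.6 CPM (SD, n = 3). The ratio was 0.764 (0.919 when scaled by library totals alone). Most of this sum was St3gal5, which went from 728 to 476 CPM. The median log2 fold change of the 5 genes was 0.025, and 3 of the 5 had a positive value.

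St3gal5 (Entrez 20454) adds sialic acid to lactosylceramide and so makes GM3, from which the more complex gangliosides are built. It was at 757, 712 and 714 CPM with DMSO and at 482, 461 and 484 CPM with NUP-17d. The gap between the groups was several times the spread within either, with means of 728 ± 25.8 and 476 ± 12.3 CPM. The fall by 0.61 on the log2 scale (SE 0.0359, adjusted p = 2.12e-13) had the lowest p of the 39 and remained at -0.35 when scaled by library totals alone. Per length, St3gal5 was the second most abundant member in both groups, at 320 FPKM with DMSO and 210 FPKM with NUP-17d after the same TMM scaling. It made up 80.0% ± 0.642 of the summed FPKM of the 5 genes with DMSO and 70.4% ± 0.265 with NUP-17d.

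B4galnt1 (Entrez 14421), which adds N-acetylgalactosamine to GM3 to make GM2, moved the other way. It was at 111, 107 and 112 CPM with DMSO and at 132, 125 and 134 CPM with NUP-17d, a rise of 0.25 on the log2 scale (SE 0.0381, adjusted p = 8.79e-06). The FPKM ratio of St3gal5 to B4galnt1 within a culture was 7.10, 6.91 and 6.67 with DMSO and 3.82, 3.85 and 3.77 with NUP-17d. These ratios are free of any scaling between libraries, and the NUP-17d cultures lay closer to each other than to any DMSO culture.

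Upstream of GM3, Ugcg, which makes glucosylceramide, was at 61.4, 63.7 and 62.4 CPM with DMSO and at 60.5, 58.7 and 57.3 CPM with NUP-17d. The cultures did not overlap, but the log2 fold change of -0.09 did not pass the test (adjusted p = 0.106), and it turned to 0.18 when scaled by library totals alone. The lactosylceramide synthases B4galt5 and B4galt6 were at 0.06 (adjusted p = 0.464) and 0.02 (adjusted p = 0.745).

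**Figure D2:**
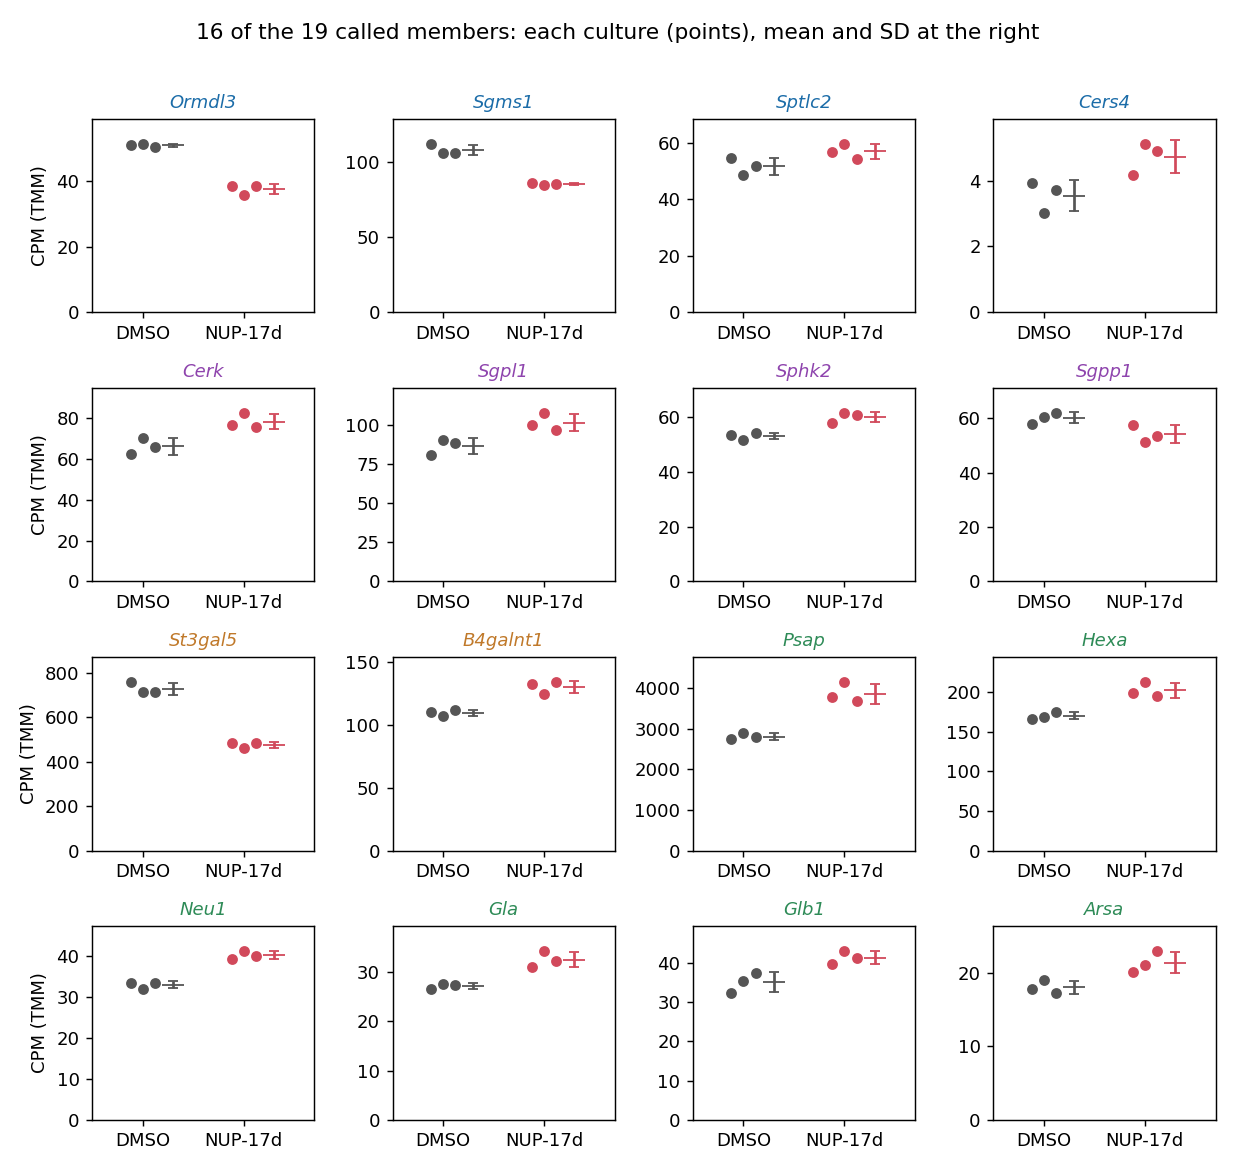
CPM after TMM scaling (vertical axes, from 0) in each DMSO (gray) and NUP-17d (red) culture for up to 6 called members of each role group with the lowest p, with the mean and SD of the 3 cultures beside the points. St3gal5 lies at 712 to 757 CPM with DMSO and at 461 to 484 CPM with NUP-17d, Psap at 2738 to 2894.5 and at 3670 to 4142 CPM, and Sptlc2 is the panel whose groups overlap; Sgpp1, lower here, turns to 0.11 (log2) when scaled by library totals alone.

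Breakdown genes shifted upward as a group. Of 12, 9 rose, none fell and 3 did not pass the test, against 16.4% of all genes tested that were higher. The median log2 fold change was 0.23. The 9 that rose were all among the 10 lysosomal members, of which Smpd1 alone did not pass (0.06, adjusted p = 0.413), and all 10 lysosomal members had a positive log2 fold change. The other 2, the neutral sphingomyelinases Smpd2 and Smpd4, act outside the lysosome and were at 0.22 (adjusted p = 0.227) and -0.10 (adjusted p = 0.0881).

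Psap (Entrez 19156) encodes prosaposin, which is cut into the 4 saposins that present lipids to the lysosomal hydrolases. It was at 2738, 2894.5 and 2785 CPM with DMSO and at 3771, 4142 and 3670 CPM with NUP-17d. The lowest NUP-17d culture was far above the highest DMSO culture, and the means were 2806 ± 80.3 and 3861 ± 248 CPM, 37.6% higher. The log2 fold change was 0.46 (SE 0.0425, adjusted p = 1.65e-09). Per length, Psap was the most abundant of the 39 members in both groups, at 1064 and 1469 FPKM after TMM scaling. It held 81.5% ± 0.534 of the FPKM summed over the 12 breakdown genes with DMSO and 84.2% ± 0.368 with NUP-17d. It therefore set most of their summed level, which went from 3495 ± 83.3 to 4630 ± 275 CPM, a ratio of 1.32 (1.59 when scaled by library totals alone). Without Psap, the other 11 genes together went from 689 ± 17.5 to 769 ± 26.8 CPM, a ratio of 1.12.

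Of the hydrolases of ganglioside breakdown, Hexa (Entrez 15211), the alpha subunit of the beta-hexosaminidase that degrades GM2, was at 167, 169 and 175 CPM with DMSO and at 199, 213 and 196 CPM with NUP-17d, a rise of 0.25 on the log2 scale (SE 0.0378, adjusted p = 7.81e-06). Neu1 (Entrez 18010), the lysosomal sialidase, was at 33.5, 31.9 and 33.4 CPM with DMSO and at 39.2, 41.1 and 40.1 CPM with NUP-17d, a rise of 0.28 (SE 0.0484, adjusted p = 3.57e-05). Glb1 (Entrez 12091), the beta-galactosidase, was at 32.4, 35.5 and 37.4 CPM with DMSO and at 39.9, 43.0 and 41.3 CPM with NUP-17d, a rise of 0.24 (SE 0.053, adjusted p = 0.000896). For each of these hydrolases all NUP-17d cultures were above all DMSO cultures. Gm2a, the activator that hands GM2 to the hexosaminidase, rose less, by 0.10 (adjusted p = 0.0424), a call lost under 6 of 15 alternative settings.

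Gla (Entrez 11605), the alpha-galactosidase that removes the end sugar of globosides, was at 26.5, 27.5 and 27.5 CPM with DMSO and at 31.2, 34.3 and 32.3 CPM with NUP-17d, a rise of 0.26 on the log2 scale (SE 0.0536, adjusted p = 0.00034). Arsa (Entrez 11883), the arylsulfatase that acts on sulfatide, was at 17.9, 18.98 and 17.2 CPM with DMSO and at 20.1, 21.1 and 22.9 CPM with NUP-17d, a rise of 0.25 (SE 0.0662, adjusted p = 0.00448). Both rises were without overlap, and Arsa had the lower counts and the wider error. Galc, which degrades galactosylceramide, rose by 0.18 (adjusted p = 0.0222) with overlapping cultures, a call lost in DESeq2 and without DMSO culture 1, DMSO culture 2 or NUP-17d culture 2, and Asah1, the acid ceramidase, rose by 0.17 (adjusted p = 0.00488).

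The number of breakdown genes called depended on single cultures. NUP-17d culture 2 had the highest level of the NUP-17d cultures for 9 of the 12 breakdown genes, and DMSO culture 1 had the lowest level of the DMSO cultures for 8 of them. Without NUP-17d culture 2, 6 breakdown genes were called higher in place of 9, the calls for Asah1 (0.11 on the log2 scale), Galc (0.15) and Gm2a (0.07) being lost. Without DMSO culture 1 or DMSO culture 2, 7 were called higher. Over all genes tested, those called higher went from 2019 (16.4%) to 1695 (13.7%) without NUP-17d culture 2. The share was 13.2% without DMSO culture 1 and 13.5% without DMSO culture 2.

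The promoters of the members were searched for CACGTG, the E-box read by the lysosomal regulators TFEB and TFE3 and by other factors. Each window was the 250 bases before a RefSeq start of the gene (build GRCm38.p6). A promoter was given for 36 of the 39, in 52 windows, and a gene counted if any of its windows held the motif. The number of windows per gene was not matched between members and all protein-coding genes. The motif, which reads the same on both strands, was found in 9 of the 36 (25%) and in 7.61% of 17492 protein-coding genes. The matches in breakdown genes are shown because this group shifted together, as 28 bases of the gene's own strand with the motif in capitals.
Arsa, chr15:89477424-89477451, minus strand: caactcagtgtCACGTGttgtctgctcc
Gla, chrX:134601216-134601243, minus strand: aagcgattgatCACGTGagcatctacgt
Gla, chrX:134601183-134601210, minus strand: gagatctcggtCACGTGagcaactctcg
Glb1, chr9:114401019-114401046, plus strand: tgcttctgagtCACGTGgcctacagagg
Smpd2, chr10:41490518-41490545, minus strand: ggcggcaaccgCACGTGacatgctgggg
In the GENCODE annotation of this build, the Arsa match lies in an exon of Arsa that begins upstream of the RefSeq start. It also lies within the gene C230037L18Rik on the opposite strand, outside the exons of that gene. Both Gla matches lie in an exon of Hnrnph2 and the Smpd2 match in an exon of Ppil6, each on the opposite strand. No gene is annotated over the Glb1 match. Arsa, Gla and Glb1 rose and Smpd2 did not pass the test. The other matches were in Cers2, Cers6, Degs1, Sgms2 and Sphk1, none of which passed. Psap, Hexa, Neu1, Galc and Gm2a, which also rose, had no match in their windows, and B4galt6, B4galnt1 and Asah1 were the members without a promoter. Matches are a description of the sequence only.

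Searched on both strands in the same way, AGATAA, a form of the site read by the erythroid factor GATA1, was found in 5 of the 36 (Gla, Psap, Sgms1, Sphk1, Spns2), or 13.9%, and in 10.3% of protein-coding genes. GGGCGG, the GC box, was found in 26 of the 36 (72.2%) and in 45.8% of protein-coding genes.

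**Figure D3:**
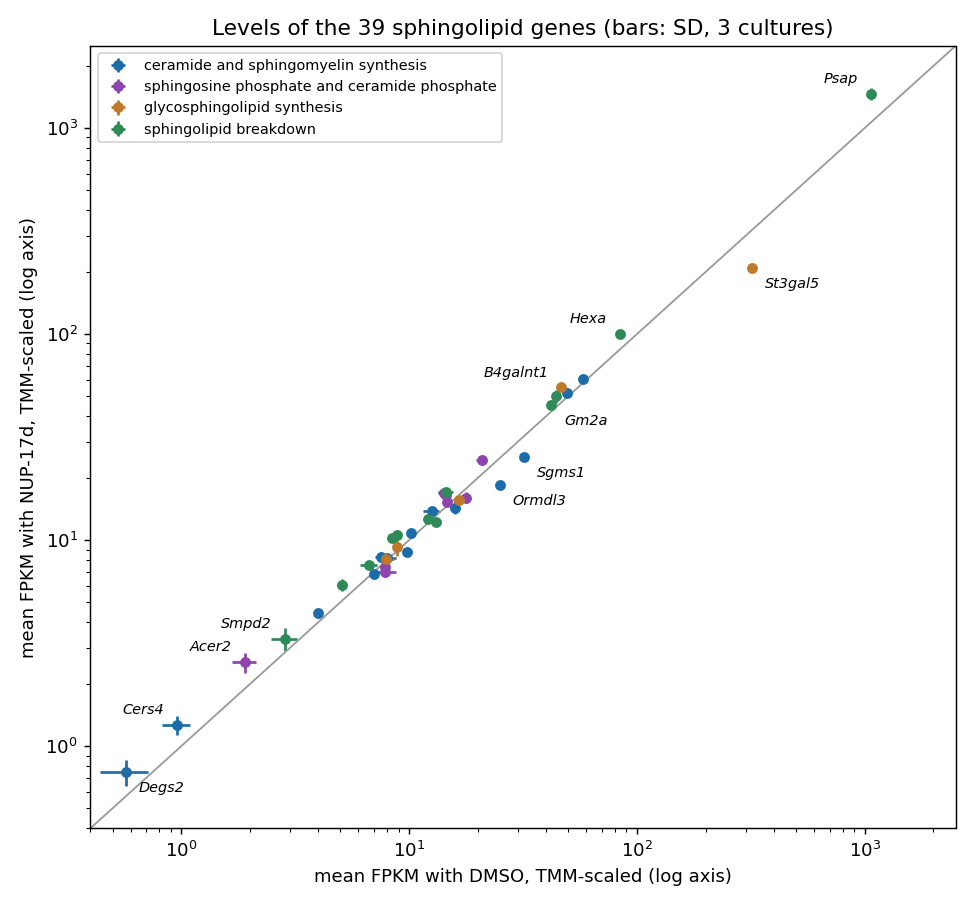
Mean FPKM of each member with DMSO (horizontal) and with NUP-17d (vertical), TMM-scaled, both on log axes, with the SD of 3 cultures and colors for the role groups; the line marks equal levels. Psap (1064 and 1469 FPKM) and St3gal5 (320 and 210 FPKM) stand above all others and on opposite sides of the line, and Degs2 (0.575 and 0.747 FPKM) is the scarcest.

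Levels per length ran over a wide range within each step of the pathway. After Psap and St3gal5, the most abundant members with DMSO were Hexa (84.0 FPKM), Cers2 (57.9 FPKM) and Degs1 (49.2 FPKM). The scarcest were Acer2 (1.90 FPKM), Cers4 (0.956 FPKM) and Degs2 (0.575 FPKM). These first 4 ranks and last 6 ranks were the same with NUP-17d.

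Another 48 genes of sphingolipid metabolism, transport and signaling were listed beside the 39. Of the 45 with a row, 38 passed the filter on low counts, 13 were higher (34.2%, against 16.4% of all genes tested) and 5 lower (13.2%, against 18.9%), and their median log2 fold change was 0.11. Scaled by library totals alone, 25 were higher and none lower, when 68.7% of all genes tested were higher and 5.34% lower. Among those with the lowest p were Npc1, a lysosomal cholesterol exporter (0.40, adjusted p = 7.83e-07), Smpdl3a, a relative of acid sphingomyelinase (0.29, adjusted p = 1.1e-06), and St3gal2, a sialyltransferase of complex gangliosides (-0.27, adjusted p = 1.91e-06, but 0.0013 when scaled by library totals alone). Samd8, a ceramide phosphoethanolamine synthase, rose by 0.35 (adjusted p = 1.18e-05), Ctsa, the protective protein that binds Neu1 and Glb1 in the lysosome, by 0.24 (adjusted p = 1.22e-05), and the sphingosine phosphate receptor S1pr2 by 0.32 (adjusted p = 6.21e-05).

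Cell type markers were compared in the same way, and the lists differed in direction. All 11 erythroid markers were lower with NUP-17d, with a median of -0.70 and with Klf1 alone turning to 0.03 when scaled by library totals alone, and their summed level went from 115989 to 131105 CPM in DMSO cultures down to 64925 to 73247 CPM in NUP-17d cultures. Macrophages are rich in lysosomes, and of 12 macrophage markers 2 were higher (Mrc1, Cd68), 3 were lower (Adgre1, C1qa, Cd5l, of which Adgre1 turned to 0.12 when scaled by library totals alone) and 7 did not pass, none was at 0, and their summed level was 653 to 714 CPM with DMSO and 706 to 781 CPM with NUP-17d, with NUP-17d culture 2 the highest. Of 12 neutrophil markers, 3 were higher and 2 lower (Camp and Fcnb, which turned to 0.10 and 0.07 when scaled by library totals alone), and their sums overlapped, at 4045 to 4225 CPM with DMSO and 4139 to 4415 CPM with NUP-17d. Of 10 megakaryocyte markers, 7 were higher and 1 lower, and their sums went from between 482 and 532 CPM to between 559 and 579 CPM. Of 7 mast cell and basophil markers tested, 2 were higher and 2 lower. The sums over that whole list were 299 to 315 CPM with DMSO and 288 to 293 CPM with NUP-17d. Of 8 lymphocyte markers tested, 2 were lower. Their whole list summed to 19.5 to 20.8 CPM with DMSO and 17.5 to 18.4 CPM with NUP-17d. Neither pair of sums overlapped. The part of these markers in the changes of the 39 genes was not tested.

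**Figure D4:**
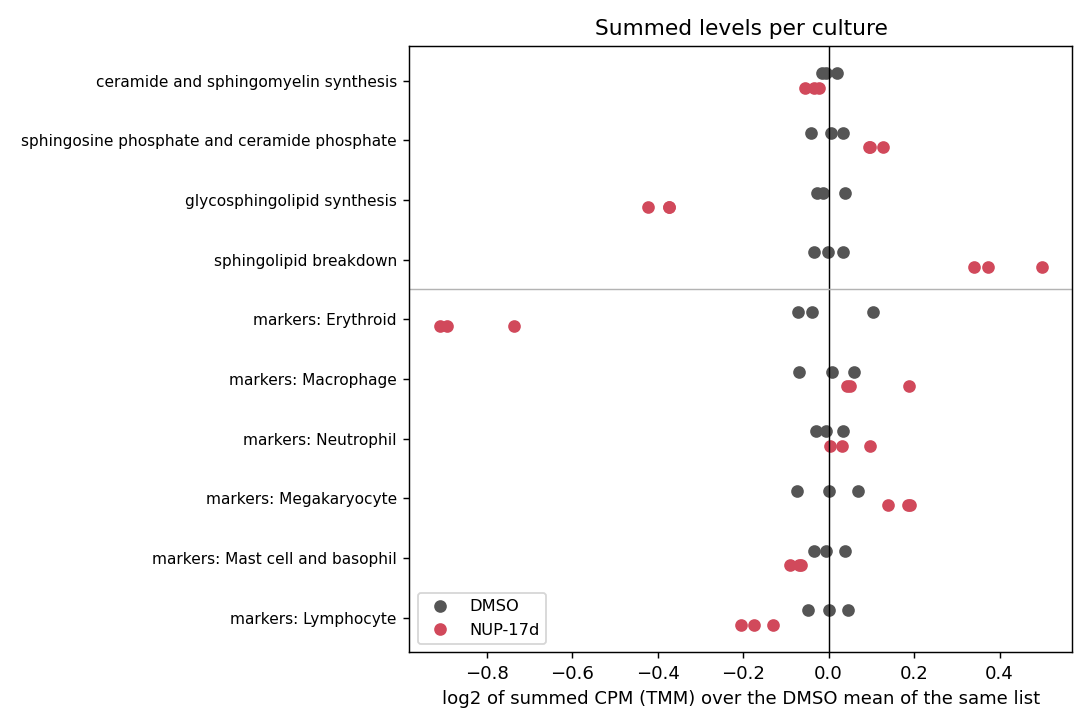
Summed CPM (TMM-scaled) of each role group, above the gray line, and of each cell type marker list, below it, in every DMSO (gray) and NUP-17d (red) culture, as the log2 ratio to the DMSO mean of the same list. Breakdown genes lie above their DMSO cultures (mean ratio 1.32) and glycosphingolipid synthesis below (0.764). With DMSO, Psap held 81.5% and St3gal5 80.0% of the summed FPKM of their role groups. Of the 5 glycosphingolipid genes, 3 had a positive log2 fold change. Erythroid markers lie lowest (0.557), and macrophage and neutrophil markers overlap between the groups.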

How the data were processed

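RNA-seq of 3 DMSO and 3 NUP-17d cultures was read from 1 table per culture. The authors deposited an expected count per gene (27.8% to 28.5% of values not whole, not normalized) and FPKM, which the authors scaled by transcript length and library total. The build mm10 is named in the submitters' processing notes; aligner and counting program are not given in the sources used here. The study's methods name a TruSeq stranded kit and an Illumina HiSeq, the labels random priming and a DNBseq platform, and whether counting used strand is not given. A gene without a row was taken as 0. Members and lists were chosen with earlier results of these data known.

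Expected counts were rounded and tested in edgeR 4.0.16 (R 4.3.3) with filterByExpr, TMM scaling, glmQLFit and glmQLFTest, with Benjamini-Hochberg adjustment over 12306 genes and a threshold of 0.05. CPM used TMM-scaled totals, and FPKM values were divided by the TMM factor. An exact permutation test of 3 against 3 cannot go below p = 0.1 and was not used. Alternatives were DESeq2 1.42.0, RLE scaling, library totals only, no filter, removal of hemoglobin genes, limma 3.58.1 on the log2 of FPKM with a pseudocount of 1 or 0.1 for a mean FPKM of at least 1, the former also without that filter, a block for the replicate number, and the omission of 1 culture at a time. The fits were tested on simulated data. Per-culture values were named for up to 6 called members of each role group with the lowest p, and outside the 39 for Mfsd2b and the 7 called genes with the lowest p, of which 1 is not reported here. Promoters came from RefSeq, matched by Entrez gene ID.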

Additional observations from a re-analysis of the deposited data

How the results depend on the processing

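Of 15 alternative settings, those without composition scaling changed the counts most. Scaled by library totals alone, 33 members were higher and 2 lower, in the ceramide and sphingomyelin group 11 and 1, in the sphingosine phosphate and ceramide phosphate group 6 and 0, in glycosphingolipid synthesis 4 higher, and among the other sphingolipid genes 25 and 0. Of all genes tested, 68.7% were higher and 5.34% lower under this scaling. limma on log2(FPKM + 1) and on log2(FPKM + 0.1) each gave 31 and 2, 9 and 1, 6 and 0, 4 higher, and 21 and 0 for the same groups. limma without the FPKM filter gave 32 members higher, 10 ceramide and sphingomyelin genes higher, 6 and 0, 4 higher, and 22 and 1. Of all genes in these limma fits, 74.9% (pseudocount 1), 74.7% (pseudocount 0.1) and 46.9% (unfiltered) were higher. Those lower were 5.68%, 5.69% and 3.84%. DESeq2 gave 0 ceramide and sphingomyelin genes higher and 3 other genes lower. Of all genes tested, 10.4% were higher and 15.3% lower in DESeq2, against 16.4% and 18.9% in edgeR. With 1 culture left out, members higher ranged from 11 to 15 and lower from 4 to 5, ceramide and sphingomyelin genes from 0 to 2 and 2 to 3, sphingosine phosphate genes lower from 0 to 1, breakdown genes higher from 6 to 9 and lower from 0 to 1, and other genes higher from 11 to 13 and lower from 3 to 5. Of all genes in the fits with 1 culture left out, 13.2% to 14.7% were higher and 16.3% to 17.6% lower. Ceramide and sphingomyelin genes higher were at 0 without DMSO culture 2, and 1 breakdown gene, Smpd4, was then called lower. Under library totals, limma with 1, limma with 0.1 and limma unfiltered, log2 fold changes turned positive for Kdsr (0.25, 0.091, 0.10, 0.091), Cers6 (0.23, 0.20, 0.23, 0.20), Ormdl2 (0.11, 0.11, 0.12, 0.11), Sphk1 (0.095, 0.098, 0.11, 0.098), Sgpp1 (0.11, 0.11, 0.12, 0.11), Acer3 (0.18, 0.16, 0.18, 0.16), Ugcg (0.18, 0.17, 0.18, 0.17), Smpd4 (0.17, 0.16, 0.17, 0.16), Mfsd2b (0.23, 0.23, 0.23, 0.23) and St3gal2 (0.0013, 0.0055, 0.0056, 0.0055). These settings leave out the composition scaling, and the cause was not tested further. With 1 culture left out, the uncalled genes Kdsr (0.011, 0.031; range -0.056 to 0.031), Cers6 (0.0027; range -0.065 to 0.0027), Ormdl1 (-0.019, -0.00073), B4galt5 (-0.011) and B4galt6 (-0.0098, -0.011) changed sign near 0. Ormdl3, St3gal5, B4galnt1, Cerk, Sgpl1, Sphk2, Psap, Hexa, Neu1, Gla, Glb1 and Arsa kept direction and call under all 15. With the replicate number as a block, 15 members were higher and 5 lower, Ormdl2 being added. Under this block, 17.2% of all genes tested were higher and 19.7% lower. Same-numbered cultures correlated at 0.0566, -0.0046 and -0.0032, so the numbers were not taken to pair them. Depth limits Degs2, Cers4, Acer2 and Smpd2, whose lowest counts were under 100.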

Other observations

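The transcript length that the tables give for a gene was identical in all 6 cultures for 26 of the 39 members and moved by over 5% between the groups for 2. For Kdsr it was 1652, 1693 and 1677 bases with DMSO and 1786, 1940 and 1841 bases with NUP-17d, 10.8% longer, so that its FPKM was 10.9% lower while its CPM was 1.24% lower. For Acer2 it was 1553, 1451 and 1442 bases with DMSO and 1344, 1372 and 1392 bases with NUP-17d, 7.6% shorter. The groups did not overlap for either gene. Which transcripts lie behind these lengths was not analysed here.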
